A study of Sus scrofa with 6 samples.

Results

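The genes described here are 9 reported substrates or binding partners of UBE3A, a HECT-type ubiquitin ligase: PTPA, CDKN1B, TSC2, RING1, RNF2, UBQLN1, UBQLN2, NEURL4 and MAPK6. They were taken by symbol from the 28965 genes listed for each library, and all 9 were found. RNA was sequenced from the cortex of 6 male pigs aged 140 days, of which 3 carried a maternal deletion of UBE3A and 3 were wildtype. No other allele or treatment is named for either group, and each animal gave 1 library. The study compared the groups to learn which RNAs differ when the maternal copy of UBE3A is lost.

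UBE3A attaches ubiquitin to other proteins, which can mark them for destruction by the proteasome. In neurons the paternal copy of the gene is largely silent, so the maternal copy supplies most of the enzyme, and its loss causes Angelman syndrome in people. Proteins that UBE3A modifies are of interest because they may build up when it is missing. Such an effect would act on protein, whereas the values here are RNA levels, so they report on the supply of each message and not on protein turnover.

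The libraries held between 19796762 and 28126173 reads assigned to exons, and 14458 genes had enough reads to be tested. UBE3A itself stood at 11.7, 7.80 and 7.73 CPM (read counts relative to library size, scaled between libraries by TMM) in deletion replicates 1 to 3, against 87.9, 93.7 and 91.5 CPM in wildtype. Each library thus matched its genotype label. Of 12 lists of cell type markers, holding 56 genes of which 54 were matched, all matched markers had reads in each library. Neuronal markers summed to between 5886 and 8020 CPM in deletion cortex and to between 5902 and 7264 CPM in wildtype cortex. The summed levels overlapped between groups for 11 lists. Among these, oligodendrocyte markers spread widely within both groups. They summed to 22606, 8970 and 17872 CPM in deletion replicates 1 to 3. In wildtype replicates 1 to 3 they summed to 9871, 19828 and 9684 CPM. The part of this spread in the gene levels below was not tested. Choroid plexus markers summed to between 38.9 and 41.5 CPM in deletion cortex and to between 23.9 and 37.9 CPM in wildtype cortex. Mitochondrially encoded mRNAs took 13.7% to 16.9% of the reads in deletion libraries and 11.2% to 13.6% in wildtype libraries, so each deletion library lay above each wildtype library. In bulk tissue, fewer cells of a type and less RNA per cell cannot be told apart.

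The RNA of all 9 genes was present in all 6 libraries, and the fitted levels in deletion cortex lay between 82.5% and 107% of those in wildtype cortex. UBQLN2, a ubiquitin shuttle protein, had the greatest difference of the 9, at 82.5% of its wildtype level with a 95% interval of 71.0% to 96.0%. TSC2, a brake on mTOR signalling, followed at 85.4%, and MAPK6, an atypical MAP kinase, stood furthest above its wildtype level at 107%. None of the 9 genes passed edgeR's quasi-likelihood test after Benjamini-Hochberg adjustment over all genes at 0.05, a threshold that 0.00692% of tested genes passed. DESeq2 called 0 of the 9 (0.176% of all genes with an adjusted p), and 1 of the 9, UBQLN2, had an unadjusted edgeR p under 0.05, against 7.23% of all genes.

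For each of the 9 genes the 95% interval of the fold change lay inside 1.5-fold in either direction. The same held for 57.6% of all tested genes. The 9 genes were well expressed, between the 62.1 and 95.7 percentile of all tested genes by mean CPM, and their median standard error was 0.10 on the log2 scale, against 0.15 for all tested genes. Their median log2 fold change of deletion over wildtype was -0.04, with 7 below 0 and 2 above, and the median of all tested genes was 0.00.

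**Figure D1:**
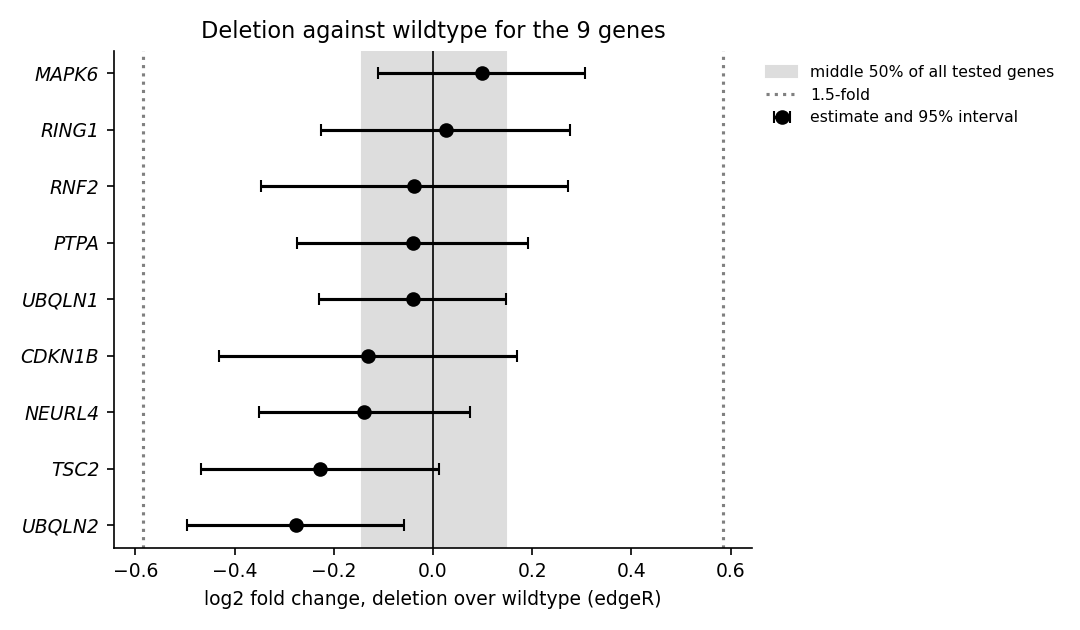
Log2 fold change of deletion over wildtype for the 9 genes (points) with 95% intervals from edgeR; the grey band holds the middle part (quartile to quartile) of all tested genes and the dotted lines mark 1.5-fold. All 9 intervals lie between the dotted lines, and that of UBQLN2 alone does not reach 0 before adjustment.

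Levels of different genes were compared per transcript length, as TPM, a share of all transcripts. UBQLN1 stood highest of the 9 at 140 ± 16.2 TPM in deletion cortex and 158 ± 8.08 TPM in wildtype cortex (SD, n = 3 each). RNF2 stood lowest at 9.88 ± 0.98 TPM in deletion cortex and 11.1 ± 1.76 TPM in wildtype cortex. In deletion cortex the order from high to low was UBQLN1, CDKN1B, PTPA, UBQLN2, RING1, MAPK6, NEURL4, TSC2 and RNF2, and libraries overlapped between CDKN1B and PTPA, between PTPA and UBQLN2 and between MAPK6 and NEURL4. In wildtype cortex UBQLN2 stood above PTPA and NEURL4 above MAPK6 in the mean, with overlap in both pairs, and the other neighbours in the order were apart. UBE3A averaged 2.13 ± 0.69 TPM in deletion cortex, below all 9 genes, and 23.2 ± 1.73 TPM in wildtype cortex, where it lay between TSC2 and RNF2.

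**Figure D2:**
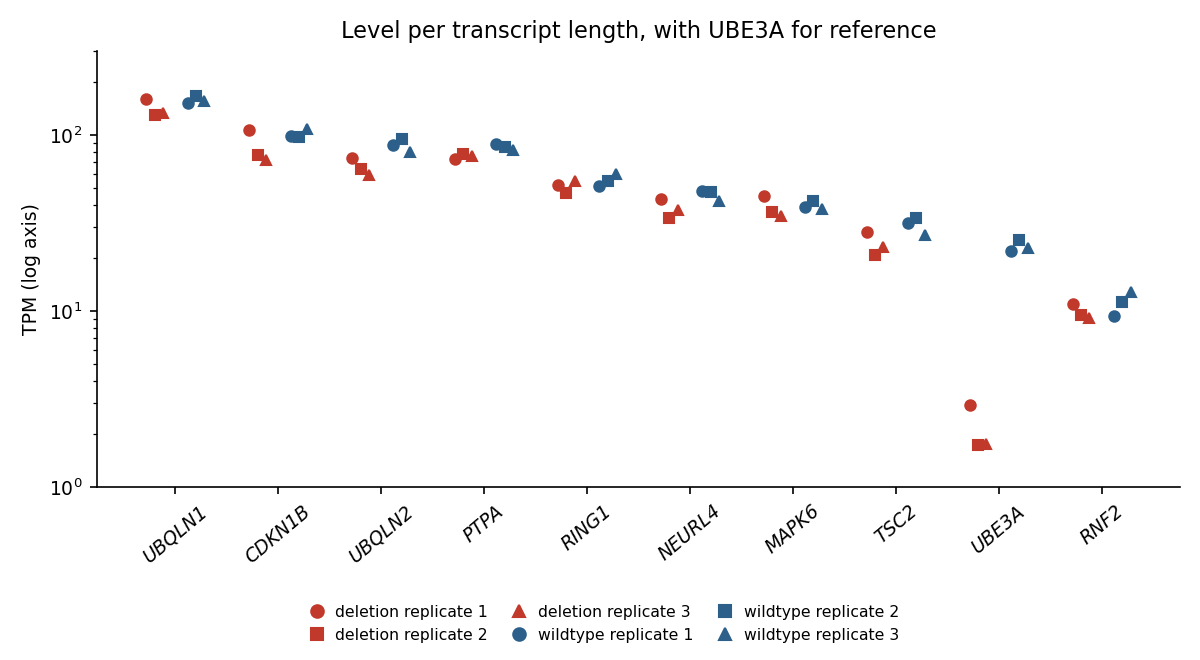
Level per transcript length in each of the 6 libraries, in TPM on a log axis, for the 9 genes and UBE3A, ordered by the wildtype mean, with deletion libraries left of wildtype ones. UBE3A is the gene whose groups are far apart (2.13 against 23.2 TPM on average). PTPA and UBQLN2 also have groups that do not overlap in TPM, by a smaller gap, and the groups of the other genes overlap.

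The order depends on the annotated length. The length by which the authors had divided was recovered from RPKM, taking total exon reads as the read total, and ran from 1.54 to 1.61 kb for CDKN1B and from 9.04 to 9.51 kb for RNF2. TPM also sums to a fixed total in each library, and over all tested genes with a read in each library the median log2 ratio of mean TPM, deletion over wildtype, was -0.13. All 9 genes had a lower mean TPM in deletion cortex. Differences between groups are therefore given from TMM-scaled values.

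PTPA activates protein phosphatase 2A (PP2A), a serine/threonine phosphatase abundant in brain, and was reported as a UBE3A substrate in mouse neurons. Its RNA stood at 207, 252 and 239 CPM in deletion replicates 1 to 3, against 253, 227 and 238 CPM in wildtype replicates 1 to 3. Deletion replicate 1 was the lowest of the 6, and the other deletion libraries lay within the wildtype range. Over wildtype, deletion cortex gave a log2 fold change of -0.04 (SE 0.10, 95% interval -0.27 to 0.19, edgeR adjusted p = 0.924). Without deletion replicate 1 it was 0.04. In TPM the deletion libraries, at 72.7 to 77.7, all lay below the wildtype ones, at 82.4 to 88.1, and relative to the median of all genes on that scale the log2 ratio was -0.05. UBQLN2 also had groups apart in TPM. Among the 14420 tested genes with a read in each library, 2522 had groups apart on that scale.

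Of 18 listed PP2A subunits and regulators 14 were tested, 6 with log2 fold changes above 0 and 8 below. None passed edgeR's test in either direction (0 at an unadjusted p under 0.05, against 7.23% of all tested genes, 0 with DESeq2). Their median was -0.02. The catalytic subunit PPP2CA measured 360.4 ± 31.0 CPM in deletion cortex and 339 ± 31.2 CPM in wildtype cortex (SD, n = 3 each). The scaffold subunit PPP2R1A, the member of highest level, measured 713 ± 80.5 CPM in deletion cortex and 801 ± 50.5 CPM in wildtype cortex. The lowest unadjusted p values belonged to the regulatory subunit PPP2R5D (log2 fold change -0.19) and the PP2A methylesterase PPME1 (-0.13). In both of them the deletion libraries lay below all wildtype libraries. They are the 2 genes of this list with groups apart, where 13.9% of all tested genes had groups apart.

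CDKN1B encodes p27, an inhibitor of cyclin-dependent kinases that holds cells out of division. Its RNA stood at 53.0, 43.5 and 39.9 CPM in deletion replicates 1 to 3, against 49.7, 45.1 and 54.7 CPM in wildtype replicates 1 to 3. Deletion replicates 2 and 3 were the lowest of the 6 libraries, and deletion replicate 1 fell between wildtype values. edgeR estimated the log2 fold change at -0.13 (SE 0.13, 95% interval -0.43 to 0.17, edgeR adjusted p = 0.799). It was -0.26 without deletion replicate 1, -0.20 without wildtype replicate 2, -0.06 without wildtype replicate 3 and -0.05 without deletion replicate 3. This gene and RNF2 had the widest intervals of the 9.

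Among 17 listed cell cycle partners and regulators of p27, 15 were tested, with 8 values above 0 and 7 below. No gene of the list passed edgeR's test (1 at an unadjusted p under 0.05, against 7.23% of all tested genes, 0 with DESeq2). The median was 0.01. CDK2, a kinase that p27 inhibits, measured 95.8 ± 25.3 CPM in deletion cortex and 113 ± 9.68 CPM in wildtype cortex. SKP2, which selects p27 for ubiquitination, measured 4.31 ± 1.04 and 4.10 ± 0.29 CPM in deletion and wildtype cortex. SKP1, the member of highest level, had a log2 fold change of 0.09. The lowest unadjusted p values were those of RNF123, another ligase reported to act on p27, and of the related inhibitor CDKN1A (log2 fold change -0.29). RNF123 measured 51.9 ± 3.01 CPM in deletion cortex and 64.8 ± 5.33 CPM in wildtype cortex, with the groups apart. In this list 1 gene was apart with deletion lower and 1 with deletion higher, where 13.9% of all tested genes had groups apart.

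TSC2, or tuberin, forms with TSC1 a complex that turns off the small GTPase RHEB and so restrains mTOR signalling and growth. TSC2 RNA stood at 77.7, 65.2 and 71.0 CPM in deletion replicates 1 to 3, against 87.9, 86.9 and 75.7 CPM in wildtype replicates 1 to 3. Deletion replicates 2 and 3 lay below the wildtype range, and deletion replicate 1 lay above wildtype replicate 3, so the groups overlapped. On the log2 scale the estimate, deletion over wildtype, was -0.23 (SE 0.10, 95% interval -0.47 to 0.01, edgeR adjusted p = 0.685). TSC2 overlaps PKD1 in the RefSeq genes of assembly Sscrofa11.1, and no source used here states whether counting used strand, so reads in the shared stretch are uncertain.

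TSC1, the partner of TSC2, stood at 78.8, 69.6 and 75.9 CPM in deletion replicates 1 to 3, against 84.2, 90.7 and 85.8 CPM in wildtype replicates 1 to 3. Each deletion library lay below each wildtype library, with a log2 fold change of -0.22 (SE 0.09, edgeR adjusted p = 0.683). Of the 11 listed genes of this complex and its pathway all 11 were tested, 6 above 0 and 5 below, with a median of 0.02. edgeR's test called none of them and DESeq2 called 0. The 1 gene at an unadjusted edgeR p under 0.05 was TSC1, against 7.23% of all tested genes. Groups were apart in 1 gene with deletion lower (TSC1) and in 2 with deletion higher (TBC1D7, log2 fold change 0.26, and RHEBL1). Over all tested genes 13.9% had groups apart. RHEB, the member of highest level, measured 125 ± 13.3 CPM in deletion cortex and 116 ± 15.0 CPM in wildtype cortex. Its relative RHEBL1, second in p, was barely expressed at 1.37 ± 0.21 CPM in deletion cortex and 0.89 ± 0.14 CPM in wildtype cortex.

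RING1 and RNF2 (also called RING1B) are the alternative catalytic subunits of Polycomb repressive complex 1, which places ubiquitin on histone H2A at silenced genes. RNF2 is the one reported as a UBE3A substrate. RING1 RNA stood at 53.9, 55.6 and 63.2 CPM in deletion replicates 1 to 3, against 54.0, 52.8 and 62.9 CPM in wildtype replicates 1 to 3. The ranges of both groups nearly coincide, with a log2 fold change of 0.03 (SE 0.11, 95% interval -0.23 to 0.28, edgeR adjusted p = 0.961). It was -0.05, -0.01 and -0.02 without deletion replicate 3, wildtype replicate 1 and wildtype replicate 2.

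RNF2 RNA stood at 32.3, 31.7 and 29.9 CPM in deletion replicates 1 to 3, against 27.6, 30.6 and 38.3 CPM in wildtype replicates 1 to 3. All deletion libraries lay within the wildtype range, whose coefficient of variation, at 17.2%, was the highest of the 9 genes in either group. Over wildtype, deletion cortex gave a log2 fold change of -0.04 (SE 0.14, 95% interval -0.35 to 0.27, edgeR adjusted p = 0.952), and it was 0.11 without wildtype replicate 3. Per length, RNF2 held 0.212, 0.203 and 0.168 of the RING1 level in deletion replicates 1 to 3, against 0.181, 0.206 and 0.216 in wildtype replicates 1 to 3. The ratios overlapped, with a mean log2 difference of -0.05 (exact two-sided permutation test, p = 0.6, where 3 against 3 cannot go below 0.1). The sign of this difference turned without deletion replicate 3 (0.05) and without wildtype replicate 3 (0.00).

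Of 22 other listed Polycomb genes 20 were tested, 6 above 0 and 14 below, with a median of -0.08. None passed edgeR's test (3 at an unadjusted p under 0.05, against 7.23% of all tested genes, 0 with DESeq2). BMI1 and PCGF2, alternative partners of the catalytic subunits, measured 34.5 ± 1.30 and 32.9 ± 2.23 CPM in deletion cortex, against 33.7 ± 4.67 and 33.0 ± 1.38 CPM in wildtype cortex. The chromobox protein CBX6 had the highest level and varied widely between animals, at 209 ± 60.1 CPM in deletion cortex and 273 ± 38.6 CPM in wildtype cortex. Lowest in p were BCOR, a corepressor of a variant complex, at 16.2 ± 1.71 CPM in deletion cortex and 22.1 ± 1.34 CPM in wildtype cortex, and PCGF5, at 40.5 ± 3.54 CPM in deletion cortex and 32.6 ± 3.31 CPM in wildtype cortex. The groups did not overlap in either gene (edgeR adjusted p = 0.683 for both). Of the 20 tested genes, 3 were apart with deletion lower and 2 with deletion higher. Over all tested genes 13.9% had groups apart.

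UBQLN1 and UBQLN2 are ubiquilins, shuttle proteins that carry a ubiquitin-like end for docking at the proteasome and a ubiquitin-binding end for cargo, and human forms were reported to bind UBE3A. UBQLN2 is X-linked and is known for mutations in familial motor neuron disease. UBQLN1 RNA stood at 260.4, 242 and 242 CPM in deletion replicates 1 to 3, against 251, 256 and 259 CPM in wildtype replicates 1 to 3. Deletion replicate 1 was the highest of the 6 and the other deletion libraries the lowest, so the groups overlapped. edgeR estimated the log2 fold change at -0.04 (SE 0.08, 95% interval -0.23 to 0.15, edgeR adjusted p = 0.905).

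UBQLN2 RNA stood at 48.8, 48.2 and 43.0 CPM in deletion replicates 1 to 3, against 58.1, 58.1 and 53.5 CPM in wildtype replicates 1 to 3. Each deletion library lay below each wildtype library. On the log2 scale the estimate, deletion over wildtype, was -0.28 (SE 0.10, 95% interval -0.49 to -0.06, unadjusted p = 0.0187, edgeR adjusted p = 0.683), which ranks it 330 of 14458 genes by p, so the difference did not hold up over all genes. With mitochondrial and haemoglobin genes removed before scaling the log2 fold change was also -0.28. The higher summed choroid plexus markers and the higher mitochondrial share of the deletion libraries both move with this difference. The part of either in the UBQLN2 difference was not tested. Removing mitochondrial and haemoglobin genes acts on the scaling between libraries and was no test of this.

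In TMM-scaled CPM UBQLN2 was the 1 gene of the 9 whose groups did not overlap. Over all tested genes 13.9% had groups apart, so this count is near the background. Groups that do not overlap stay apart when a library is left out, so for UBQLN2 the settings below add nothing. Without deletion replicate 1, 5 of the 9 were apart, all lower in deletion cortex (CDKN1B, TSC2, UBQLN1, UBQLN2 and NEURL4), against 34.8% of all genes in the same setting. Without wildtype replicate 3 there were 3 (TSC2, UBQLN2 and NEURL4), against 29.0% of all genes. Without deletion replicate 3 there were 2 (UBQLN2 lower and MAPK6 higher), against 19.8%. Without deletion replicate 2, wildtype replicate 1 or wildtype replicate 2, UBQLN2 was the 1 gene apart, against 21.3%, 19.4% and 24.5% of all genes.

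**Figure D3:**
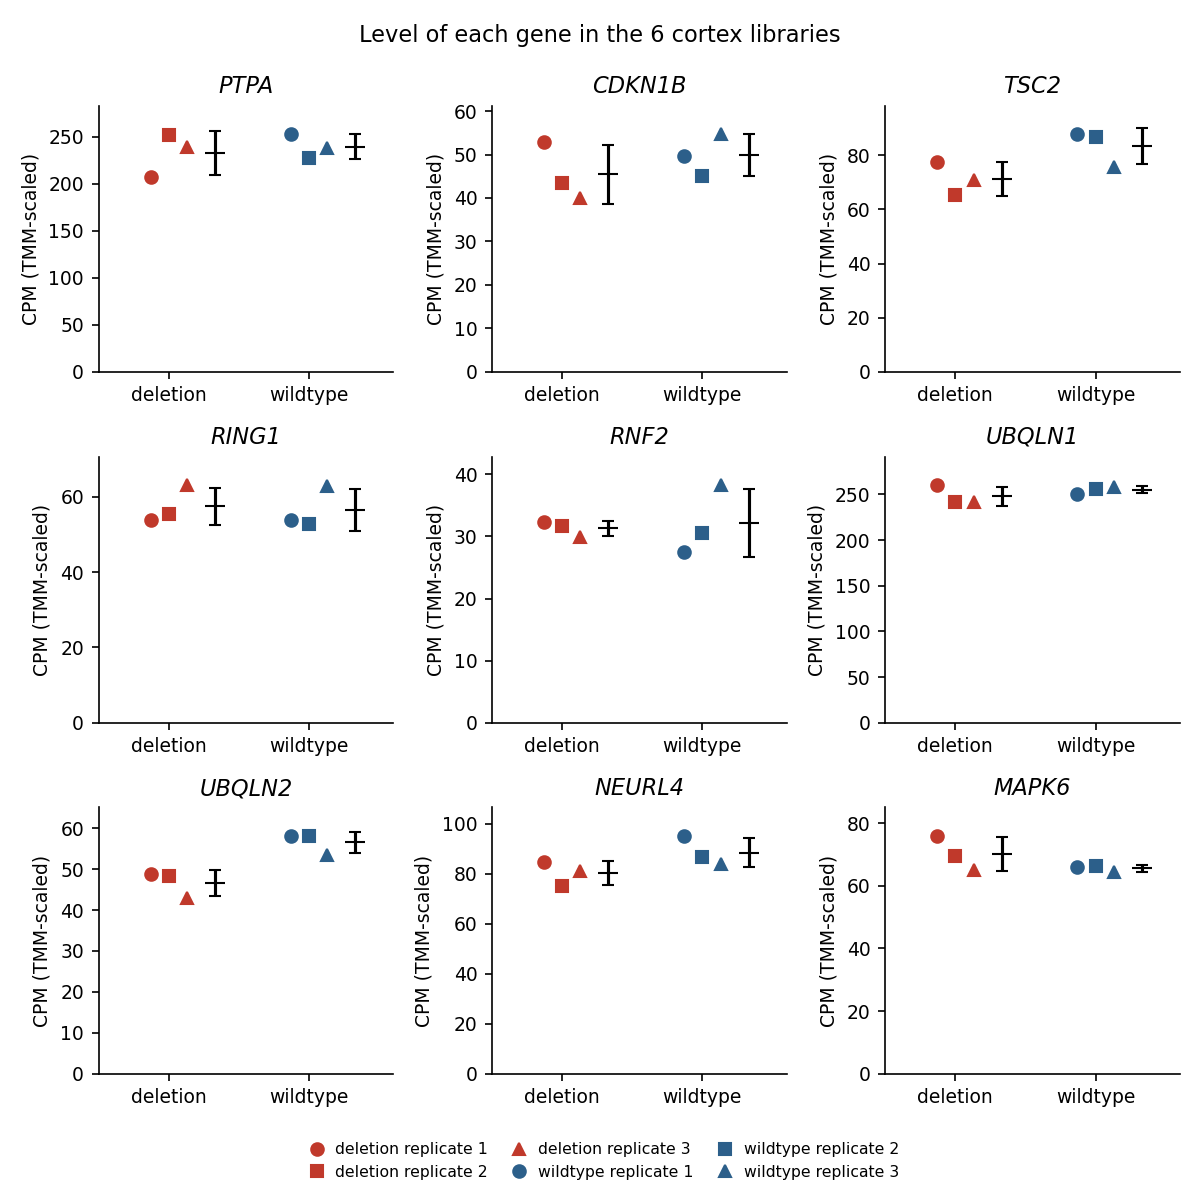
TMM-scaled CPM of each of the 9 genes in the 6 libraries, with deletion on the left and wildtype on the right of each panel, 1 symbol per replicate number (numbers pair no animals) and black bars for mean ± SD (n = 3). UBQLN2 is the panel in which all deletion points (43.0 to 48.8) lie below all wildtype points (53.5 to 58.1).

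Within each library the level of UBQLN2 per length was set against that of UBQLN1, a ratio that no scaling between libraries can move. The size of this ratio rests on the annotated lengths, recovered as 2.03 to 2.13 kb for UBQLN2 and 5.05 to 5.31 kb for UBQLN1. UBQLN2 held 0.466, 0.497 and 0.443 of the UBQLN1 level in deletion replicates 1 to 3, against 0.577, 0.565 and 0.515 in wildtype replicates 1 to 3. Each deletion library lay below each wildtype library. The mean log2 ratio was -1.09 ± 0.08 in deletion cortex and -0.86 ± 0.09 in wildtype cortex (SD, n = 3 each), a difference of -0.24 or 0.849-fold. The exact two-sided permutation test gave p = 0.1, the smallest p that 3 against 3 animals allow. With the RNF2 to RING1 ratio this was 1 of 2 ratios tested. The ratio uses the same UBQLN2 reads as the fold change above, so it is not a separate result. The share of all gene pairs with ratios apart was not computed. No source used here states how reads matching both ubiquilin genes were assigned. UBQLN1 overlaps an lncRNA in the RefSeq genes of assembly Sscrofa11.1, so its reads in the shared stretch, and with them the ratio, carry the same doubt about strand as TSC2.

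**Figure D4:**
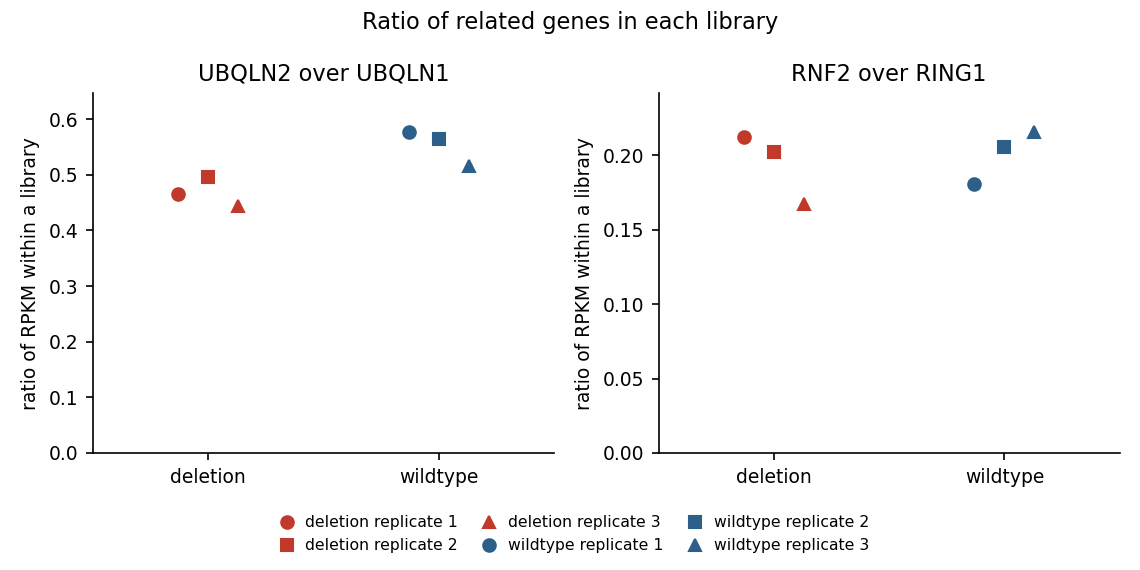
Ratio of RPKM within each library for UBQLN2 over UBQLN1 (left panel) and RNF2 over RING1 (right panel), 1 point per animal, deletion left of wildtype, axes from 0. The UBQLN2 ratios run from 0.443 to 0.497 in deletion libraries and from 0.515 to 0.577 in wildtype libraries, while the RNF2 ratios overlap.

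Of 14 other listed shuttle and receptor proteins for ubiquitinated cargo 13 were tested, 5 above 0 and 8 below, with a median of -0.08. No gene of the list passed edgeR's test (0 at an unadjusted p under 0.05, against 7.23% of all tested genes, 0 with DESeq2). UBQLN4, the third brain ubiquilin, measured 62.3 ± 9.42 CPM in deletion cortex and 72.7 ± 12.7 CPM in wildtype cortex. TOLLIP, an endosomal adaptor and the member of highest level, measured 287 ± 17.3 CPM in deletion cortex and 329 ± 22.6 CPM in wildtype cortex. The shuttle protein RAD23B measured 82.4 ± 3.02 CPM in deletion cortex and 93.5 ± 3.70 CPM in wildtype cortex. TOLLIP and RAD23B had the lowest p of the list, and they are 2 of its 4 genes in which each deletion library lay below each wildtype library, a pattern seen in 7.00% of all tested genes.

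NEURL4 and MAPK6 were found with UBE3A in human cells in a large assembly built around HERC2, another HECT ligase. NEURL4, a neuralized-repeat protein linked to centrioles, stood at 84.8, 75.2 and 81.0 CPM in deletion replicates 1 to 3, against 95.1, 86.6 and 83.7 CPM in wildtype replicates 1 to 3. Deletion replicate 1 fell between wildtype values and the other deletion libraries lay below them. Over wildtype, deletion cortex gave a log2 fold change of -0.14 (SE 0.09, 95% interval -0.35 to 0.07, edgeR adjusted p = 0.720).

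MAPK6 encodes ERK3, a short-lived atypical MAP kinase that works with the kinase MAPKAPK5. Its RNA stood at 75.9, 69.7 and 65.1 CPM in deletion replicates 1 to 3, against 66.1, 66.4 and 64.4 CPM in wildtype replicates 1 to 3. Deletion replicates 1 and 2 lay above the wildtype range and deletion replicate 3 inside it. edgeR estimated the log2 fold change at 0.10 (SE 0.09, 95% interval -0.11 to 0.31, edgeR adjusted p = 0.782), the highest of the 9. It was 0.04 without deletion replicate 1 and 0.15 without deletion replicate 3, and RING1 stood above it without deletion replicate 1 and without wildtype replicate 3 (0.07 and 0.11), as did RNF2 in the second of these (0.11 against 0.08 for MAPK6). RING1 was also above MAPK6 with limma-voom and sample weights (0.08 against 0.05). The coefficient of variation between animals was 7.77% in deletion cortex and 1.67% in wildtype cortex.

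HERC2 itself stood at 121, 92.6 and 102 CPM in deletion replicates 1 to 3, against 132, 131 and 115 CPM in wildtype replicates 1 to 3. Deletion replicate 1 fell between wildtype values, with a log2 fold change of -0.26 (SE 0.12, edgeR adjusted p = 0.685). Of 14 listed genes of this assembly, of ERK3 signalling and of related neuralized proteins all 14 were tested, 10 above 0 and 4 below, with a median of 0.03. edgeR's test called none of them (2 at an unadjusted p under 0.05, against 7.23% of all tested genes, 0 with DESeq2). MAPKAPK5 measured 29.0 ± 0.75 CPM in deletion cortex and 28.1 ± 2.79 CPM in wildtype cortex, and PAK1, a kinase of highest level in the list, had a log2 fold change of 0.02. The lowest p values belonged to NEURL1B (log2 fold change -0.36, groups apart) and NEURL1 (-0.27), relatives of NEURL4. In this list 1 gene was apart with deletion lower and 1 with deletion higher, where 13.9% of all tested genes had groups apart.

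A further 15 genes whose proteins were reported as UBE3A substrates by other work were taken as a last list, of which 14 were tested, 7 above 0 and 7 below, with a median of -0.03. None passed edgeR's test (2 at an unadjusted p under 0.05, against 7.23% of all tested genes, 0 with DESeq2). ARC, an activity-induced synaptic protein, had the lowest p of them, at 154, 161 and 135 CPM in deletion replicates 1 to 3 and 179, 234 and 282 CPM in wildtype replicates 1 to 3. The groups did not overlap, with a log2 fold change of -0.63 (SE 0.16, edgeR adjusted p = 0.683). In this list 2 genes, ARC among them, had groups apart, both lower in deletion cortex. The membrane-binding protein ANXA1 was second in p, at 30.0 ± 4.85 CPM in deletion cortex and 22.5 ± 3.89 CPM in wildtype cortex. The proteasomal ubiquitin receptor PSMD4, the member of highest level, had a log2 fold change of 0.13. Over the 7 lists 99 different genes were tested, of which 20 had groups apart, against 13.9% of all tested genes. An unadjusted edgeR p under 0.05 was reached by 9 of the 99, against 7.23% of all tested genes. Whether the lists differ from all genes was not tested.

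**Figure D5:**
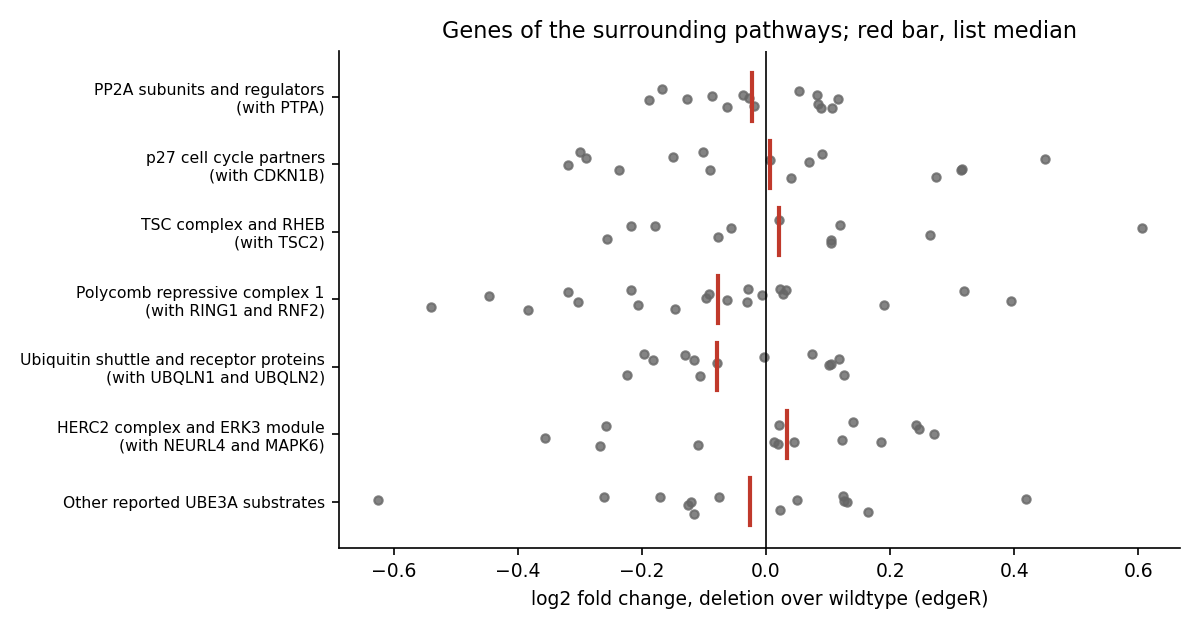
Log2 fold change of deletion over wildtype from edgeR for each tested gene (grey points, spread vertically at random) of the 7 lists of surrounding pathways, with the list median as a red bar. The medians lie between -0.08 and 0.03, and points fall on both sides of 0 in each list.

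In the authors' deposited table of the comparison, 0 of the 9 genes have an adjusted p under 0.05, where 0.159% of the genes given one do. The authors' deposited table lists UBQLN2 with a signed fold change of -1.21 (p = 0.0796, adjusted p = 0.997), a negative value meaning lower in the deletion group. TSC2 has -1.17 (p = 0.126) and MAPK6 1.08 (p = 0.458) in the authors' deposited table, which rests on the same libraries.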

How the data were processed

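Cortex was frozen and RNA of integrity number above 6.1 was made into stranded polyadenylated-RNA libraries, per the labels' protocols. The authors deposited exon read counts per gene, per the file headers. No source used here names the aligner, counter, build or strand setting. The deposited RPKM and TPM values were the authors' and served for levels per length and ratios. The authors' CPM column is a score of their own scaling and was not used. The authors' deposited table gives a signed fold score and p-values, and its 6 group columns were not used.

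Blank cells were read as 0. Of 28965 IDs 16246 had symbols in the files and 777 more came from a gene name table. Counts were filtered with filterByExpr, scaled with TMM and tested with edgeR 4.0.16 (quasi-likelihood, robust, no covariate, R 4.3.3), adjusted over all 14458 genes by Benjamini-Hochberg. CPM in the text are these TMM-scaled values, and standard errors were derived from the size of the log2 fold change and the F statistic. This step was tested on simulated data with known changes. Alternatives were DESeq2 1.42.0, its size factors, limma-voom (3.58.1), other filters, the animal-number prefix as covariate, scaling without mitochondrial and haemoglobin genes, and leaving out each library. Unique-read and whole-gene counts, with the non-exonic share planned from them, were not analysed here.

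Groups came from the labelled genotype. Replicates are separate animals, numbered in accession order, and chi-square per degree of freedom within groups was 14.3 to 52.0, so none was a duplicate. Members and lists were chosen with earlier results of these data known. List genes named were fixed partners, the member of highest mean RPKM and the pair of lowest p, while the mention of a leave-one-out count or of a gene apart follows its value. Of 111 list entries 102 were matched.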

Additional observations from a re-analysis of the deposited data

How the results depend on the processing

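No paired analysis was possible because the labels give no replicate numbers, and the accession-order numbers pair no animals. The animal-number prefix was 14 for deletion replicate 1 and wildtype replicate 1, and 15 for the other animals. Leaving out either of these libraries thus leaves its group with prefix 15 alone. Over 13 alternative settings 0 of the 9 genes passed (lowest adjusted p = 0.224), and of their 117 values 112 kept their sign, 5 turned and 0 passed the threshold. Those that turned did so with a library left out, over which the log2 fold change ranged from -0.10 to 0.036 for PTPA, from -0.047 to 0.11 for RING1 and from -0.14 to 0.11 for RNF2. With a library left out, the other values kept their sign and ranged from -0.26 to -0.047 for CDKN1B, from -0.29 to -0.17 for TSC2, from -0.079 to -0.023 for UBQLN1, from -0.18 to -0.086 for NEURL4 and from 0.037 to 0.15 for MAPK6. For UBQLN2 the range over all 13 was -0.32 to -0.22, with adjusted p between 0.224 and 0.968. Over these settings (edgeR, DESeq2 or limma-voom) the unadjusted p ranged from 0.00674 to 0.0784 for UBQLN2 and from 0.0218 to 0.204 for TSC2. Whether either gene fell under 0.05 before adjustment thus depended on the setting. With a library left out, the number of the 9 genes with groups apart ranged from 1 to 5, which follows in part from fewer samples (19.4% to 34.8% of all genes were then apart). The difference in the log2 ratio of RNF2 to RING1 then ranged from -0.13 to 0.050 and that of UBQLN2 to UBQLN1 from -0.29 to -0.20. Genes called over the whole table were 1 with edgeR, 21 with DESeq2, 2 without a low-count filter, 2 without deletion replicate 1 and 1 to 2 over the left-out libraries; the cause was not tested. In the surrounding lists 0 genes were called in each setting run. With 3 animals per group, the printed intervals of 8 of the 9 genes reach 0 and that of UBQLN2 excludes it only before adjustment.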
